A study of Mus musculus with 8 samples.

Results

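The mitochondrial genome transcripts are the RNAs copied from the small circular DNA inside mitochondria. They were taken as every gene of the deposited table whose name starts with mt- and that lies on the mitochondrial chromosome: 37 of 55401 genes. Of these, 13 encode proteins, 2 encode ribosomal RNAs and 22 encode transfer RNAs. All 37 had the same coordinates in the GENCODE M21 annotation of the mouse build GRCm38.

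RNA was sequenced from the cortical (compact) bone of C57BL/6J mice. The 4 KO libraries came from UbcCre/ERT2 Ripk4fl/fl mice, which carry floxed Ripk4 alleles and a Cre recombinase that is driven by the ubiquitin C promoter and fused to a drug-dependent estrogen receptor. The 4 control libraries came from Ripk4fl/fl mice, so the floxed alleles are shared by both groups. All mice are labelled as 4 weeks, which may be their age or the time since Cre activation. No activating drug is named in the sources used here. Since they do not say whether each library is a separate animal, p-values measure only the spread between these libraries. Ripk4, a receptor-interacting serine/threonine kinase, was counted at 0, 12, 0 and 0 in KO 1 to 4 and at 10, 4, 0 and 4 in control 1 to 4. No library exceeded the floor of 12 counts, which stands for about 3 sequenced fragments, so the level of Ripk4 did not check the genotype labels.

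The mitochondrial genome is transcribed from both strands into long RNAs that run through many genes. Transfer RNAs lie between most of the protein-coding and ribosomal RNA genes, and their excision releases the mRNAs and rRNAs. Transcription of the heavy strand gives both rRNAs, 12 mRNAs and 14 tRNAs, while that of the light strand gives mt-Nd6 and 8 tRNAs. The proteins are core subunits of the respiratory chain complexes I, III and IV and of ATP synthase, and all other parts of these complexes, and all enzymes that copy and process the genome, are made from nuclear genes. Because the 37 genes share their primary transcripts, they are not independent measurements of the groups.

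Transcripts of the mitochondrial genome made up a smaller share of the RNA in KO than in control bone, and the control libraries differed far more among themselves than the KO libraries did. The 37 genes took 6.05%, 5.56%, 5.95% and 6.09% of all counts in KO 1 to 4, against 6.17%, 9.21%, 16.1% and 11.7% in control 1 to 4. Control 1 stood just above the highest KO library, and control 3 well above every other. The means were 5.91% ± 0.243 in KO and 10.8% ± 4.19 in control (SD, n = 4 each), and the coefficient of variation was 4.12% in KO and 38.8% in control. The highest share was 1.1 times the lowest in KO and 2.6 times the lowest in control. The difference of mean log2 shares, KO minus control, was -0.78, or 0.581-fold. A two-sided exact permutation test over 70 assignments gave p = 0.0286, the smallest p this design allows. Adjusted over this share and those of the 3 classes it was 0.0381. The share difference was known from earlier results of these data, so p-values for the shares and classes are no independent test of it. Without control 3 and control 4 the log2 difference was -0.35 (exact permutation p = 0.0667, the smallest p that split allows). With any 1 KO library left out the exact permutation p was 0.0571. Without mt-Atp6, which was low against its neighbours in controls 1, 3 and 4 (below), the log2 difference was -0.85 (exact permutation p = 0.0286). That setting was chosen after seeing the data. Counting error was small, since the 95% Wilson interval of a share reached at most 0.018 percentage points to either side. In length-scaled units, the 37 genes held 12.6%, 11.5%, 12.3% and 12.5% of the summed FPKM (fragments scaled by gene length and library depth) in KO 1 to 4, and 13%, 19.5%, 29.9% and 22.7% in control 1 to 4. In bulk tissue, fewer cells rich in these transcripts and less of them per cell cannot be told apart.

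The 3 classes of gene had similar differences. Protein-coding genes took 5.77% ± 0.228 of the counts in KO and 10.5% ± 4.09 in control, a log2 difference of -0.78 (exact permutation p = 0.0286, adjusted 0.0381, n = 4 each). The rRNAs took 0.126% ± 0.0148 in KO and 0.23% ± 0.0873 in control, a log2 difference of -0.80 with the same exact permutation p. Transfer RNAs took 0.0106% ± 0.00158 in KO and 0.0208% ± 0.012 in control. Their log2 difference was of like size, -0.79, but the groups overlapped, since control 1 had 0.00959% and KO 4 had 0.013% (exact permutation p = 0.229, n = 4 each). Relative to the protein-coding counts, rRNA counts stood at 0.0217 in KO and 0.022 in control on average (exact permutation p = 1, n = 4 each). The tRNA counts stood at 0.00184 in KO and 0.00187 in control (exact permutation p = 0.971, n = 4 each). Counts of mt-Nd6, the mRNA of the light strand, stood at 0.018 of the other mRNAs in KO and 0.0188 in control (exact permutation p = 0.571, n = 4 each). Whether strand was used in counting is not stated, so RNA of the other strand may be among the mt-Nd6 counts. Protein-coding genes held 97.5% to 98.0% of the mitochondrial counts in every library.

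**Figure D1:**
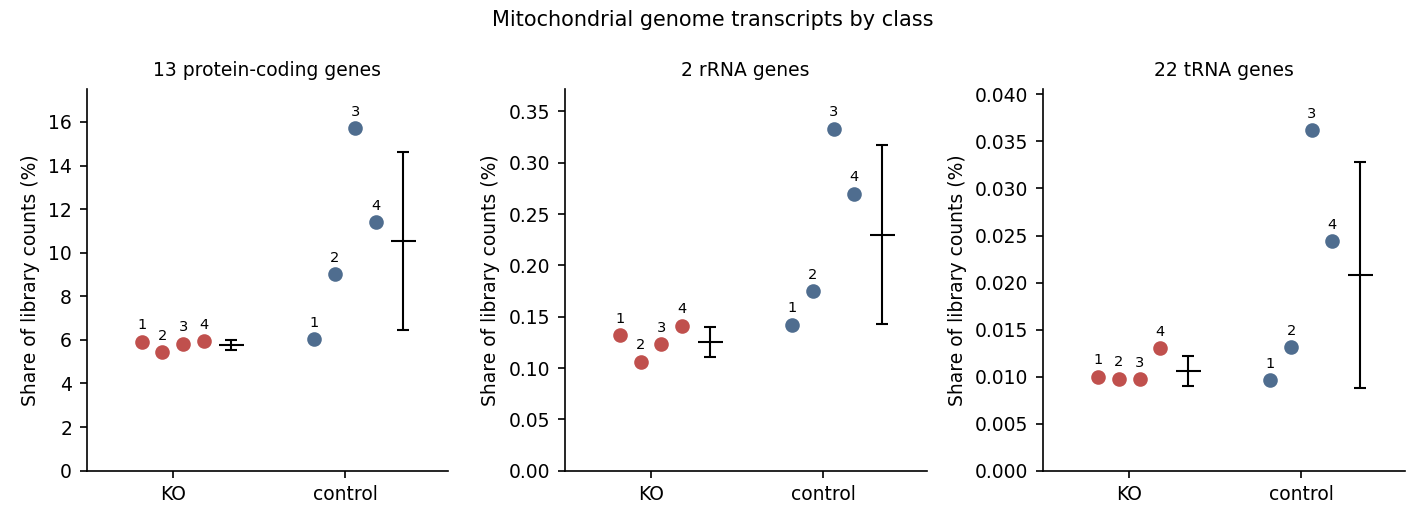
Share of library counts (percent, separate scales from 0) taken by the 13 protein-coding, 2 rRNA and 22 tRNA genes in each numbered KO and control library, with the mean and SD beside each group of 4. The KO libraries lie close together in every panel, while control 3 and control 4 lie highest and control 1 lies near the KO libraries.

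Gene by gene, 33 of the 37 passed the filter on low counts and entered edgeR's quasi-likelihood test over 20152 genes. Of these, 32 were fitted lower in KO and 1, mt-Atp6, higher. At a Benjamini-Hochberg adjusted p under 0.05, 2 fell, mt-Nd2 and mt-Nd4l, and 0 rose. Among all genes tested, 5.03% fell and 5.31% rose, so the called share of the mitochondrial genes was near the background. An unadjusted p under 0.05 was reached by 21 of the 33, where 28.1% of all tested genes reached it in either direction. The FPKM values of the groups did not overlap, with KO lower, for 10 of the 33, against 11.5% of all tested genes. The median log2 fold change was -0.90 over the 33 genes and -0.02 over all genes. Within a group, the median coefficient of variation of a gene's FPKM was 13.3% in KO and 50.7% in control for the mitochondrial genes, against 24.8% in KO and 19.3% in control for all tested genes. The count of falls rested on single libraries. Without control 1, 14 genes passed (3.54% of all genes fell in that fit). With any other single library left out 0 passed, in fits that called between 769 and 2230 genes over the whole table. DESeq2 called 18 of the genes lower, with 11% of all genes called lower.

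**Figure D2:**
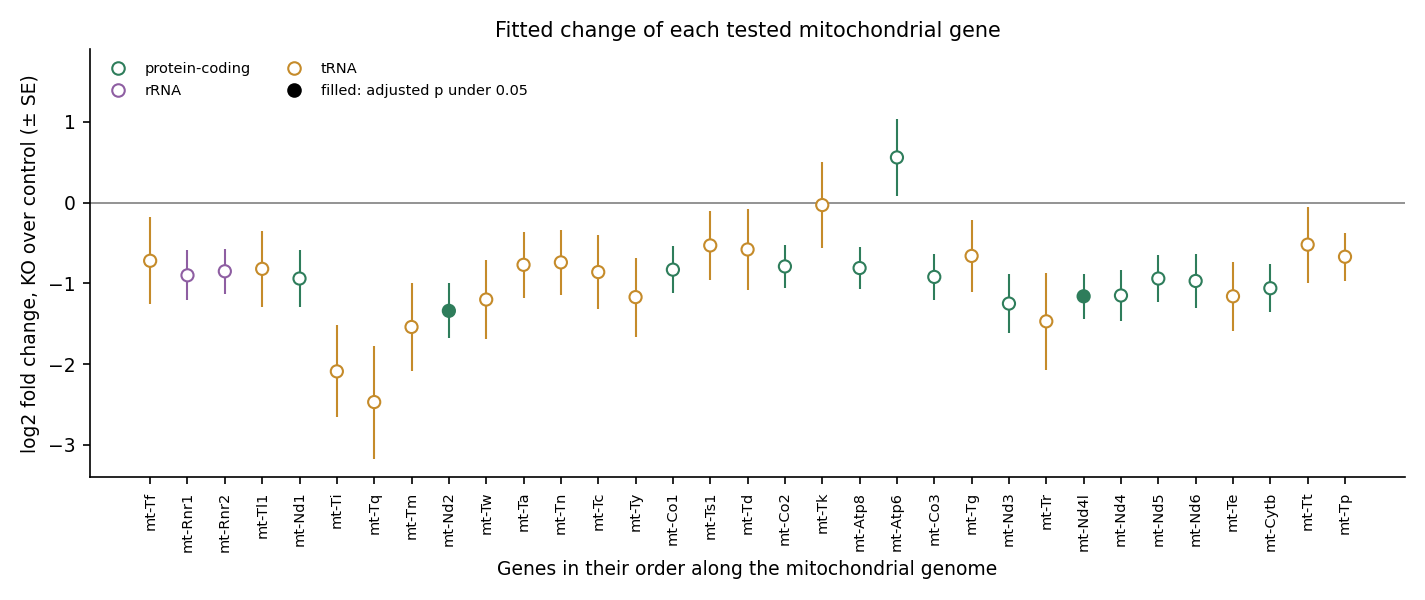
Log2 fold change, KO over control, with its standard error (edgeR, n = 4 per group) for the 33 tested genes in their order along the mitochondrial genome, coloured by class, with filled points for an adjusted p under 0.05. Most genes lie near -0.9; mt-Ti and mt-Tq lie below -2, mt-Tk near 0, and mt-Atp6 above 0, and the filled points are mt-Nd2 and mt-Nd4l.

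The 7 complex I subunits, parts of the proton pump that oxidises NADH, included both genes that passed. Their log2 fold changes ran between -1.34 for mt-Nd2 and -0.94 for mt-Nd1 and mt-Nd5. For mt-Nd2 (ENSMUSG00000064345, MT 3914 to 4951, plus strand) the FPKM was 2810, 2650, 2350 and 2490 in KO 1 to 4 and 3530, 4700, 10600 and 7190 in control 1 to 4. Every KO library was below every control library, and control 1 was again the lowest control. The means were 2570 ± 197 in KO and 6520 ± 3150 in control (SD, n = 4 each; log2 fold change -1.34 ± 0.34 SE; edgeR adjusted p = 0.0432). For mt-Nd4l (ENSMUSG00000065947, MT 9877 to 10173, plus strand) the FPKM was 1880, 1970, 1840 and 1680 in KO and 2380, 3420, 6010 and 4740 in control, again without overlap. Its log2 fold change was -1.16 ± 0.28 (edgeR adjusted p = 0.0365). With 1 library left out, the adjusted p reached at most 0.109 for mt-Nd2 and 0.0953 for mt-Nd4l.

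The other complex I mRNAs did not pass but were fitted lower. The log2 fold change was -1.25 ± 0.37 for mt-Nd3 (edgeR adjusted p = 0.0657), and -1.15 ± 0.31 for mt-Nd4 (adjusted p = 0.0521), which lies directly after mt-Nd4l and shares 7 bases with it. For mt-Nd4 the KO libraries had 2810, 2680, 2670 and 2650 FPKM and the controls 3360, 4700, 9330 and 6520, so the groups did not overlap. For mt-Nd1, at the start of the mRNA region, the FPKM was 5470, 4840, 5650 and 5240 in KO and 5290, 7540, 16600 and 11000 in control. Here control 1 lay inside the KO range (adjusted p = 0.121). The light-strand gene mt-Nd6 was fitted at -0.97 (adjusted p = 0.101), close to mt-Nd5 on the other strand, with which it shares 14 bases (log2 fold change -0.94, adjusted p = 0.076).

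Complex III holds 1 mitochondrial gene product, cytochrome b. Its mRNA mt-Cytb (MT 14145 to 15288, plus strand) was the steadiest of the mRNAs in KO, at 5090, 4970, 5050 and 5090 FPKM, against 6160, 8790, 16100 and 11200 in control. The groups did not overlap (log2 fold change -1.06 ± 0.30, edgeR adjusted p = 0.0557). The complex IV mRNAs encode the catalytic core of cytochrome c oxidase, which passes electrons to oxygen. The most abundant per length was mt-Co1 (MT 5328 to 6872, plus strand), with 11700, 10300, 11300 and 12400 FPKM in KO and 11900, 17500, 29800 and 22500 in control. Control 1 lay within the KO range, and the log2 fold change was -0.83 ± 0.29 (adjusted p = 0.105). The values were -0.79 for mt-Co2 (adjusted p = 0.1) and -0.92 for mt-Co3 (adjusted p = 0.0794), so none of the 3 passed.

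As shares of all counts, the 7 complex I mRNAs summed to 1.75% ± 0.0594 in KO and 3.68% ± 1.66 in control, and the 3 complex IV mRNAs to 2.82% ± 0.189 in KO and 5.02% ± 1.85 in control (SD, n = 4 each). The ratio of complex I to complex IV counts was 0.637, 0.67, 0.62 and 0.566 in KO 1 to 4, against 0.678, 0.649, 0.793 and 0.744 in control 1 to 4. Control 2 lay below KO 2, and the other controls above every KO library. The log2 difference was -0.20, with p = 0.0571 by the two-sided exact permutation test (n = 4 each) and 0.229 adjusted over the family of 4 ratios of summed counts, so it did not pass. The adjusted p of the other ratios of this family was 1.

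The rRNA genes were counted at a lower level per length than the mRNAs, and the labels describe the libraries as mRNA libraries. For mt-Rnr1, the 12S rRNA of the small mitochondrial ribosomal subunit (MT 70 to 1024, plus strand), the FPKM was 497, 402, 465 and 615 in KO and 574, 700, 1380 and 1070 in control. For mt-Rnr2, the 16S rRNA of the large subunit (MT 1094 to 2675, plus strand), it was 445, 357, 416 and 430 in KO and 459, 573, 1070 and 883 in control. The groups overlapped for mt-Rnr1 alone. The log2 fold changes were -0.90 (edgeR adjusted p = 0.0995) and -0.85 (adjusted p = 0.0918).

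The ATP synthase mRNAs stood apart. They encode membrane subunits of the enzyme that makes ATP from the proton gradient, and they lie on 1 RNA in which the reading frame of mt-Atp6 (MT 7927 to 8607) begins inside the end of mt-Atp8 (MT 7766 to 7969). For mt-Atp8 the log2 fold change was -0.81 ± 0.26 (edgeR adjusted p = 0.0805), like that of its neighbours, with 4250, 4450, 4940 and 4590 FPKM in KO and 4830, 7390, 11300 and 8730 in control. For mt-Atp6 it was 0.56 ± 0.48 (adjusted p = 0.482), with 5870, 5640, 6030 and 6200 FPKM in KO and 1490, 8920, 3550 and 2450 in control. Control 2 was the highest of all 8 libraries and controls 1, 3 and 4 were the lowest. The ratio of mt-Atp6 to mt-Atp8 FPKM was 1.38, 1.27, 1.22 and 1.35 in KO, and 0.308, 1.21, 0.314 and 0.281 in control. Over mt-Co3, the next mRNA, mt-Atp6 stood at 1.25, 1.32, 1.28 and 1.29 in KO and at 0.283, 1.23, 0.268 and 0.264 in control. In 3 control libraries mt-Atp6 was thus low against both mt-Atp8 and mt-Co3, while control 2 resembled the KO libraries.

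A stretch of nuclear chromosome 1 holds copies of several mitochondrial genes, and the table counts them as genes of their own. The predicted gene Gm10925 (ENSMUSG00000100862, GRCm38 chr1:24613974-24614651, minus strand) matched mt-Atp6 over all 678 of its bases with 0 mismatches. The junction of mt-Atp8 and mt-Atp6 (chrMT:7907-7989, plus strand) and the start of Gm10925 (chr1:24614589-24614651, minus strand) are printed here from GENCODE M21 transcripts, 5′ to 3′, because the same letters sit at both places. Capitals mark the 43 bases that mt-Atp8 and mt-Atp6 share, starting at the ATG of mt-Atp6.
mt-Atp8 end and mt-Atp6 start: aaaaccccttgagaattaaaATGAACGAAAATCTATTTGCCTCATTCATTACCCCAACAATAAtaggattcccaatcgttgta
Gm10925 start: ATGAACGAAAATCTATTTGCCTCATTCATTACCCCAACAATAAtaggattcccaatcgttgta

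Counts at the copy followed mt-Atp8 rather than mt-Atp6. Gm10925 had 5810, 5690, 5790 and 6380 FPKM in KO 1 to 4 and 6340, 8880, 15800 and 11000 in control 1 to 4. Its ratio to mt-Atp8 was 1.36, 1.28, 1.17 and 1.39 in KO and 1.31, 1.2, 1.4 and 1.26 in control. Its ratio to mt-Atp6 was 0.989, 1.01, 0.96 and 1.03 in KO, against 4.26, 0.994, 4.45 and 4.5 in control. The copy's log2 fold change was -0.82 ± 0.28 (edgeR adjusted p = 0.1), close to those of mt-Atp8 and mt-Co3. The sources used here do not say how reads that match both places were counted, and reads from the nuclear copy and from mt-Atp6 cannot be told apart over these bases. With the copies' counts added to their mitochondrial genes, an alternative chosen after seeing the data, the log2 fold change of mt-Atp6 was -0.29 (adjusted p = 0.544), so its direction depends on how the copy is treated.

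**Figure D3:**
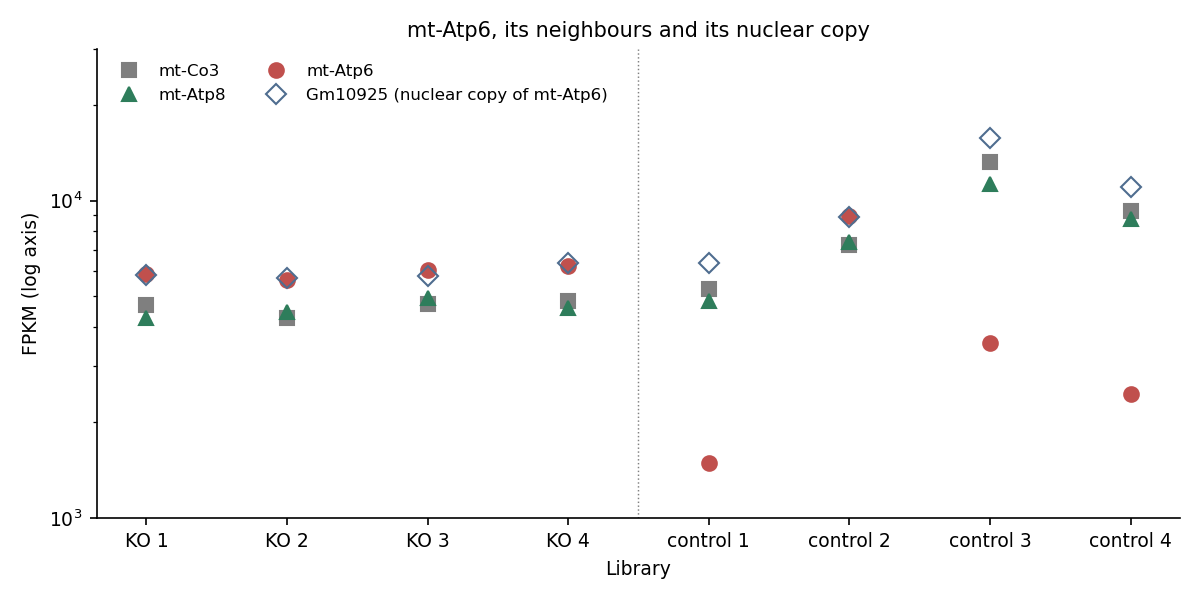
FPKM (log axis) of mt-Atp6, its neighbours mt-Atp8 and mt-Co3, and the nuclear copy Gm10925 in each KO and control library. The points of mt-Atp6 and Gm10925 lie on each other in the 4 KO libraries and control 2, and mt-Atp6 lies far below the others in controls 1, 3 and 4.

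In all, 7 genes of that stretch matched mitochondrial genes with at most 1 mismatch. They copy mt-Nd4, mt-Nd4l, mt-Nd3, mt-Co3, mt-Atp6, mt-Co2 and mt-Co1, those of mt-Nd4 and mt-Co1 only in part. The 7 copies together held 1.9%, 1.8%, 1.89% and 2.05% of the counts in KO 1 to 4 and 2.1%, 2.89%, 5.31% and 3.78% in control 1 to 4, so the libraries ranked among controls as they did for the mitochondrial genes. The FPKM of the 4 full-length copies other than Gm10925 was 0.911 to 1.01 of that of their mitochondrial gene in every library, and that of the 2 partial copies 0.463 to 0.686. Since near-identical rows of the table can split or share reads, the values of at least these 7 mitochondrial genes are uncertain to that extent. The search covered annotated transcripts only, so the bases between the copies were not searched. The copies Gm28439 and Gm10222, of mt-Nd4 and mt-Nd4l, passed the test as lower in KO (edgeR adjusted p = 0.0459 and 0.0388). The mRNAs without a copy found by this search, mt-Nd1, mt-Nd2, mt-Nd5, mt-Nd6, mt-Cytb and mt-Atp8, had log2 fold changes between -1.34 and -0.81. Of these, mt-Atp8 lies between mt-Co2 and mt-Atp6, whose copies are neighbours in that stretch. It may therefore have a copy there without an annotated transcript and is not known to be free of one.

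Transfer RNA genes gave low and uneven counts. Of the 22, 18 were tested, 0 passed and all 18 were fitted lower. Their log2 fold changes ran from -2.47 to -0.03 around a median of -0.79. An unadjusted p under 0.05 was reached by 7 of the 18, where 28.1% of all tested genes reached it in either direction. The 28.1% counts both directions while all 18 tRNAs were fitted lower, so it is not a like background. DESeq2 called 4 tRNAs lower, mt-Ti, mt-Tq, mt-Tm and mt-Te, where it called 11% of all genes lower. Nothing is read from either count. The 4 left out were mt-Tv, mt-Tl2, mt-Th and mt-Ts2, the tRNAs for valine, the second leucine codon group, histidine and the second serine group. The highest count in any library was 19 for mt-Tv and 18 for mt-Tl2, while mt-Th (11) and mt-Ts2 (4) never exceeded the floor of 12. Whether a count came from a mature tRNA or from a longer RNA running through it cannot be told apart in these tables.

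Of the tRNA counts, those at light-strand genes held most. The sources do not say whether strand was used in counting, so RNA of the opposite strand may be counted at these genes. The 8 light-strand genes held 73.0% of them in KO and 75.0% in control, with a median FPKM of 68.9 in KO and 121 in control. The 14 heavy-strand genes held 27.0% in KO and 25.0% in control, with a median FPKM of 6.56 in KO and 11.9 in control. Most counts fell on mt-Te, the glutamate tRNA (39.4% of tRNA counts in KO and 43.9% in control), mt-Tl1, the leucine tRNA directly after the 16S rRNA (19.9% in KO and 16.7% in control), and mt-Tp, the proline tRNA (10% in KO and 8.81% in control). These 3, and the neighbouring mt-Ti, mt-Tq and mt-Tm that had the lowest fold changes, are shown as their genes read 5′ to 3′ from GENCODE M21 transcripts (GRCm38), with the anticodon in capitals, found as the middle of a 7-base loop closed by a 5-base stem.
mt-Te (chrMT:14071-14139, minus strand): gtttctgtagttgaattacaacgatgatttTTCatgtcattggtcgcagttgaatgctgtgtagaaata
mt-Tl1 (chrMT:2676-2750, plus strand): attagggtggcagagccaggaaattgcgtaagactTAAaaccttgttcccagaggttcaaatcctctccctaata
mt-Tp (chrMT:15356-15422, minus strand): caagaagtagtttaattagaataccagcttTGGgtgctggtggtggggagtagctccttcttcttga
mt-Ti (chrMT:3706-3774, plus strand): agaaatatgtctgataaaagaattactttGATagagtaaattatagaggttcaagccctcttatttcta
mt-Tq (chrMT:3772-3842, minus strand): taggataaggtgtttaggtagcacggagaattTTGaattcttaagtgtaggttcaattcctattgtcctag
mt-Tm (chrMT:3845-3913, plus strand): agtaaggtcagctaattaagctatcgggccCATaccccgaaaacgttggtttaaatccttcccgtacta

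The abundant tRNA genes were highest in the same control libraries as the mRNAs. For mt-Te the FPKM was 567, 465, 492 and 642 in KO and 532, 729, 2150 and 1420 in control, with control 1 inside the KO range (log2 fold change -1.16, edgeR adjusted p = 0.122). For mt-Tl1 it was 213, 251, 259 and 272 in KO and 160, 263, 802 and 520 in control, so control 1 was the lowest of all libraries (log2 fold change -0.82, adjusted p = 0.292). For mt-Tp it was 133, 133, 142 and 156 in KO and 127, 193, 342 and 239 in control (log2 fold change -0.67, adjusted p = 0.19). In all of them control 3 was the highest library and control 4 the next.

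The cluster of tRNA genes between mt-Nd1 and mt-Nd2 had the lowest fold changes of the genome. For mt-Ti, the isoleucine tRNA, the counts were 26, 42, 27 and 39 in KO and 49, 70, 254 and 183 in control, and its log2 fold change was -2.09 ± 0.57 (edgeR adjusted p = 0.0529). For mt-Tq, the glutamine tRNA on the opposite strand, which shares 3 bases with mt-Ti, they were 13, 16, 10 and 2 in KO and 23, 30, 92 and 72 in control. KO 3 and KO 4 thus lay under the floor of 12 counts, and the log2 fold change of -2.47 ± 0.70 (adjusted p = 0.0572) rests on few fragments. The groups did not overlap for either gene. For mt-Tm, the methionine tRNA, the counts were 126, 174, 81 and 173 in KO and 176, 176, 710 and 516 in control. Its log2 fold change was -1.54 ± 0.54 (adjusted p = 0.103). The next gene, mt-Tw for tryptophan, follows mt-Nd2 and had a log2 fold change of -1.20 (adjusted p = 0.155).

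Among the remaining tRNAs, mt-Tk (lysine) was the nearest to no difference, at a log2 fold change of -0.03 (edgeR adjusted p = 0.976), on counts of 27, 31, 12 and 32 in KO and 15, 16, 37 and 35 in control. The light-strand group mt-Ta, mt-Tn, mt-Tc and mt-Ty, for alanine, asparagine, cysteine and tyrosine, lies side by side. KO 4 was the highest KO library for each of them, with 104 FPKM for mt-Ta, 157 for mt-Tn, 94.9 for mt-Tc and 78.1 for mt-Ty. The corresponding values in control 3, the highest library, were 215, 309, 200 and 197.

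Relative to the counts of the mitochondrial mRNAs other than mt-Atp6, the groups overlapped for most genes. Of 35 genes with a value above the floor, 4 were lower in every KO library than in any control, mt-Nd2, mt-Nd4, mt-Ti and mt-Tq, and 2 were higher, mt-Atp6 and mt-Tp. On the FPKM scale, 11.5% of all tested genes did not overlap with KO lower, and 1855 of 20152 did not overlap with KO higher. The counts of 4 and 2 do not stand above these backgrounds, and nothing is read from them. The log2 differences on this scale were -0.38 for mt-Nd2, -0.20 for mt-Nd4, -0.95 for mt-Ti, -1.70 for mt-Tq, 1.72 for mt-Atp6 and 0.27 for mt-Tp. Ratios of neighbouring genes were also set side by side. These 14 pairs were chosen after values were seen and are given without a test. The FPKM of mt-Nd2 was 0.513, 0.548, 0.417 and 0.474 of that of mt-Nd1 in KO, against 0.667, 0.624, 0.64 and 0.652 in control, where it stayed within that range while mt-Nd1 itself ran from 5290 to 16600 FPKM. That of mt-Ti was 0.00091, 0.00168, 0.000935 and 0.00157 of mt-Nd1 in KO, against 0.00186, 0.00198, 0.00313 and 0.00335 in control. The ratio of mt-Co3 to mt-Co2 averaged 0.808 ± 0.0218 in KO and 0.875 ± 0.0372 in control (SD, n = 4 each), also without overlap, though KO 2 and control 2 lay close together. The groups overlapped for mt-Nd4l over mt-Nd4, at 0.682 ± 0.0427 in KO and 0.701 ± 0.0392 in control, and mt-Nd6 over mt-Nd5, at 1.35 ± 0.15 in KO and 1.34 ± 0.0978 in control (SD, n = 4 each). The rRNAs stood at 1.12, 1.13, 1.12 and 1.43 for mt-Rnr1 over mt-Rnr2 in KO and at 1.25, 1.22, 1.29 and 1.21 in control, so KO 4 stood apart from the other KO libraries.

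**Figure D4:**
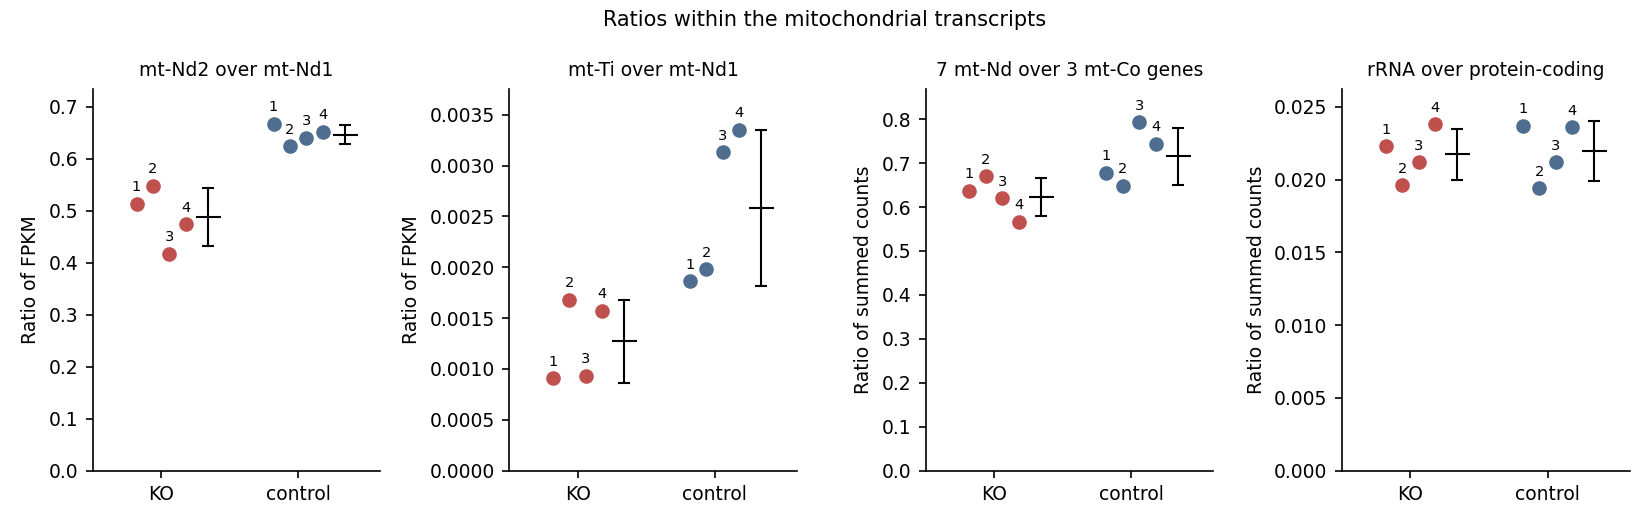
Ratios within the mitochondrial transcripts in each numbered KO and control library, with the mean and SD beside each group of 4: FPKM of mt-Nd2 and of mt-Ti over mt-Nd1, summed counts of the 7 mt-Nd genes over the 3 mt-Co genes, and rRNA over protein-coding counts. The KO values of mt-Nd2 over mt-Nd1 lie below all control values, those of mt-Ti over mt-Nd1 lie lower in KO, and the groups overlap in the other panels.

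The nuclear genes that copy, process and translate these RNAs, or that complete the same complexes, had a median fold change near 0. In 13 lists of such genes, 261 of 262 were tested. Their median on the log2 scale was -0.06, with list medians between -0.13 and 0.02. In all, 4 rose and 2 fell, or 2.3% of those tested, where 10.3% of all genes were called. The count was 0 without control 3 and control 4, 2 to 7 with 1 library left out, and 20 by DESeq2. Over all genes these settings called 56, 769 to 2230, and 3965. Of 11 genes of mitochondrial transcription 0 passed, and of 17 of genome replication and packaging 0 passed. Tfam, which packages the mitochondrial DNA and starts its transcription, had 4.66 ± 0.501 FPKM in KO and 5.03 ± 0.464 in control (SD, n = 4 each), with a log2 fold change of -0.08 ± 0.10 (edgeR adjusted p = 0.657). Polrmt, the mitochondrial RNA polymerase, had 3.44 ± 0.16 FPKM in KO and 3.73 ± 0.515 in control (log2 fold change -0.08, adjusted p = 0.684). The lowest p among the transcription genes were those of Tfb1m, an rRNA methyltransferase (-0.66, adjusted p = 0.0731), and Mterf2 (-0.64, adjusted p = 0.0992).

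Of 17 genes of RNA stability and decay, 1 passed: Fastkd2, a mitochondrial RNA-binding protein, had 1.21, 1.34, 1.28 and 1.3 FPKM in KO and 1.92, 1.96, 1.59 and 1.9 in control, a log2 fold change of -0.49 (edgeR adjusted p = 0.0327). Lrpprc and Slirp, which form a complex that stabilises mitochondrial mRNAs, had log2 fold changes of -0.23 (adjusted p = 0.274) and -0.24 (adjusted p = 0.554). Of 22 genes of RNA processing and tRNA maturation 0 passed; the lowest p were those of the pseudouridine synthase Trub2 (0.68, adjusted p = 0.104) and the tRNA modifying enzyme Trit1 (-0.76, adjusted p = 0.106). Of 15 translation factors tested, Mrrf, the ribosome recycling factor, fell (-0.52, adjusted p = 0.047). Of 20 aminoacyl-tRNA synthetases, Iars2, which charges mt-Ti with isoleucine, rose (0.34, adjusted p = 0.0358), at 7.01, 8.21, 7.18 and 6.96 FPKM in KO and 6.6, 6.05, 5.09 and 5.87 in control. Of 8 fits that each left out 1 library, Fastkd2 did not pass in 7, Mrrf in 7 and Iars2 in 6.

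Of the mitochondrial ribosomal proteins, 48 in the large and 32 in the small subunit, 1 passed: Mrpl33 rose (0.62 ± 0.10, edgeR adjusted p = 0.012), at 11.6, 11.7, 13 and 12.4 FPKM in KO and 8.74, 8.23, 8.14 and 7.15 in control. Of the 36 nuclear complex I subunits, Ndufv3 (0.46, adjusted p = 0.0149) and Ndufb7 (0.28, adjusted p = 0.047) rose and 0 fell. Mrpl33 and Ndufv3 passed in all 8 fits with 1 library left out, while Ndufb7 did not in 7. None of 9 complex III, 14 complex IV, 16 ATP synthase and 4 complex II subunits passed. Complex II has no subunit from the mitochondrial genome, and its list median was -0.09. The lowest fold changes among nuclear complex IV genes were those of the isoforms of heart and skeletal muscle, such as Cox7a1, with 3.17, 7.25, 4.7 and 0.876 FPKM in KO and 3.68, 2.73, 28.7 and 23.9 in control (log2 fold change -1.91, adjusted p = 0.197).

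Skeletal muscle, which adheres to bone and is rich in mitochondria, was among the marker lists. All 20 skeletal muscle markers were detected and tested and 0 passed, with a median log2 fold change of -1.10. Their summed FPKM was 309, 2120, 1050 and 274 in KO 1 to 4 and 645, 182, 4680 and 2740 in control 1 to 4. Ckm, the muscle creatine kinase, had 20.7, 99, 66 and 20.6 FPKM in KO and 49.6, 9.39, 326 and 150 in control. Acta1 (skeletal actin) and Myh4 (a fast myosin) were likewise highest in control 3 and next in control 4, the libraries with the highest mitochondrial shares. Control 2, with the third highest mitochondrial share, had the lowest muscle sum, and KO 2, with the lowest mitochondrial share, had the third highest. The muscle score is the mean centred log2 CPM of the markers. With it as a covariate, chosen after seeing the data, the median log2 fold change of the 33 mitochondrial genes was -0.67. Of these genes 1, mt-Nd4l, passed, where 1474 of 20152 genes passed in all.

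**Figure D5:**
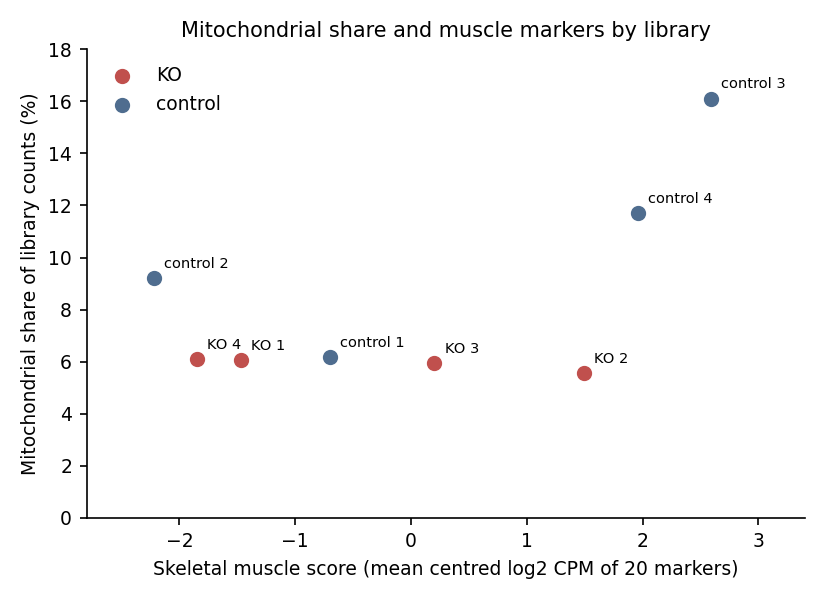
Mitochondrial share of library counts (percent) against the skeletal muscle score (mean centred log2 CPM of 20 markers) in the 4 KO and 4 control libraries. Controls 3 and 4 are highest on both axes, control 2 has a share of 9.21% at the lowest score, and the KO libraries stay between 5.56% and 6.09% at scores from -1.85 to 1.49.

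Single markers of bone, marrow and vessel cells also passed the edgeR test, in which 5.03% of all tested genes fell and 5.31% rose. The lists themselves were not tested. Osteoblast markers fell for 6 of 10, with summed FPKM between 1130 and 2520 in KO and between 4480 and 9530 in control. Osteocyte markers fell for 3 of 7, with sums of 83.8 to 421 in KO and 417 to 1040 in control. Neutrophil markers rose for 8 of 12, with sums of 57500 to 71100 in KO and 30300 to 43600 in control. B cell markers fell for 4 of 10, endothelial for 3 of 7 and chondrocyte for 2 of 7 tested. Of 8 osteoclast markers 1, Mmp9, rose, a count near the background, while 6 of the 8 were fitted lower (list median -0.29 on the log2 scale). Of the tested erythroid, adipocyte and macrophage markers 0 passed, and no listed marker was at 0 in all libraries. The labelled tissue was thus represented by its defining markers in both groups. The part of any of these cell types, muscle included, in the mitochondrial share was not tested; the muscle covariate was fitted for the single genes.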

How the data were processed

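For each gene and library the authors deposited an estimated count and an FPKM value in 1 table. The tools HISAT2 2.0.4, StringTie 1.3.4d and DESeq2, and the build GRCm38, come from the submitters' processing notes, which give no roles. Neither the labels nor the notes say how reads matching several places were counted or whether strand was used. The deposited expected counts are whole numbers. The value 4 occurs 7854 times and 8 occurs 4839 times, so about 4 counts were taken as 1 fragment. The values 1, 2 and 3 occur 4421, 3306 and 2724 times, which this scale does not account for, so it is approximate. Intervals and the floor of 12 counts cover counting error only. Library totals were 61092688 to 66774693 counts, and 0 columns were left unused. Counts of any pair of libraries of a group differed with a chi-square of at least 71.1 per degree of freedom, so none was a duplicate.

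All genes were fitted together with edgeR 4.0.16 (quasi-likelihood, TMM, filterByExpr at 10 counts, two-sided) in R 4.3.3, with Benjamini-Hochberg adjustment at 0.05. Shares and ratios were compared by exact permutation. DESeq2 1.42.0, limma 3.58.1 on log2(FPKM + 0.5) and log2(FPKM + 0.1), other filters and scalings, a replicate block, leaving out libraries and a muscle covariate were alternatives. Nuclear copies were found with blastn 2.17.0 among GENCODE M21 transcripts (at least 99% identity over 90% of the copy). Named nuclear genes are those of each list that passed, up to 4, otherwise the pair with the smallest p, with Tfam, Polrmt, Lrpprc and Slirp always. The text gives part of these 26 and the counts for the rest. The genes and lists were chosen with earlier results of these data known, the share difference among them. The fit was tested on simulated data. It recovered 0% of 67 1.5-fold, 20.9% of 67 2-fold and 47% of 66 4-fold changes, with 19495 genes tested and 2 false calls. In the real data 10.3% of all tested genes were called, a larger part than was changed in the simulation. Fewer changed genes make the adjusted threshold stricter, so these rates do not give the recovery in the real data. A gene that did not pass may still differ. Ahsp and Mtrfr were not matched.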

Additional observations from a re-analysis of the deposited data

Results flagged for a closer look

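With 4 libraries per group, a library was marked where it stood apart from the other 3 by Dixon's criterion at 95%. This marked 14 of 180 groups, where chance gives about 1 in 20. For mt-Atp6 over mt-Atp8, control 2 stood at 1.21 and the other controls at 0.281 to 0.314; for mt-Atp6 over mt-Co3, control 2 stood at 1.23 and the others at 0.264 to 0.283. The ratio of the nuclear copy Gm10925 to mt-Atp6 was 0.994 in control 2 and 4.26 to 4.5 in the other controls. These 3 ratios share mt-Atp6 and mark the same library.

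KO 4 was high for the tRNA share, at 0.013% of counts against 0.00973% to 0.01%, and for the neighbouring light-strand genes mt-Ta (104 FPKM against 65.3 to 66), mt-Tn (157 against 91.3 to 101) and mt-Tc (94.9 against 48.7 to 54.4). Its ratio of mt-Rnr1 to mt-Rnr2 was 1.43, where the other KO libraries had 1.12 to 1.13. KO 2 had 2.72 FPKM of mt-Tf, against 2.1 to 2.15. KO 1 had 2810 FPKM of mt-Nd4, against 2650 to 2680. KO 3 was low for the copy Gm28439, at 1240 FPKM against 1430 to 1450, and for the ratio of mt-Nd6 to the other mRNAs, at 0.0162 against 0.0184 to 0.0189. Among nuclear genes, control 3 had 3.97 FPKM of Mrps9, against 4.99 to 5.09, and KO 2 had 45.0 FPKM of Atp5e, against 41.0 to 41.7.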

How the results depend on the processing

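The same-numbered libraries did not deviate together (correlations of 0.11, -0.17, 0.09 and -0.06), so the replicate numbers were not taken to pair them. With a replicate block, the log2 differences were -0.783 for the mitochondrial share, -0.7827 for protein-coding and -0.7971 for rRNA genes. Each had a sign-flip exact permutation p of 0.125, the smallest it allows. In the edgeR fit with that block, 0 mitochondrial and 0 listed nuclear genes passed, where 56 of 20152 genes passed in all. With 1 library left out, the share difference ran between -1.023 and -0.5628, the protein-coding one between -1.023 and -0.5622, the rRNA one between -1.0 and -0.5921 and the tRNA one between -1.1 (without control 1, exact permutation p = 0.0286) and -0.4611. The first 3 of these missed the threshold with any KO library left out. The rRNA ratio ran between -0.07366 and 0.03483 and the tRNA ratio between -0.1215 and 0.1012, so neither had a fixed sign. Without control 3 and control 4, chosen after seeing the data, the differences were -0.3515 for the share and -0.3523 for protein-coding genes.

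Against 2 in the main test, the mitochondrial genes passing numbered 18 by DESeq2, 4 and 1 by limma at pseudocounts of 0.5 and 0.1, 1 without a filter, 1 with the muscle covariate, 0 to 14 with 1 library left out and 0 without controls 3 and 4. Against 6, the listed nuclear genes numbered 20 by DESeq2, 2 by limma at 0.1, 2 without a filter and 2 with the muscle covariate. They numbered 2 to 7 with 1 library left out and 0 without controls 3 and 4. Over all genes, 2083 passed in the main test, 3965 by DESeq2, and 2092 and 1657 by limma at 0.5 and 0.1. Without a filter 1465 passed, with the muscle covariate 1474, with 1 library left out 769 to 2230, and without controls 3 and 4 only 56. Without controls 3 and 4 the log2 fold change was positive for mt-Tf (0.1527), mt-Tl1 (0.3107), mt-Ta (0.0782), mt-Tn (0.08773), mt-Tc (0.07392), mt-Tg (0.1592), mt-Tt (0.3778) and mt-Tk (0.7431). That of mt-Tk was also positive with the block (0.03696), with the covariate (0.2313) and without KO 3, control 3 or control 4 (with 1 library left out it ran between -0.2382 and 0.2658). With the copies added, that of mt-Atp6 was -0.2884. The cause of these changes was not tested. Scaling on nuclear genes moved no median. Counts under about 50 in a tRNA limit its precision.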
